A study of Mus musculus with 4 samples.

Results

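Genes of the major histocompatibility complex (MHC) class II pathway were examined in RNA-seq of mouse prefrontal cortex (PFC) after knockdown of *Ash1l*, a histone methyltransferase gene linked to autism. The set held 7 of the 23420 gene symbols in the count tables, chosen by symbol as the core genes of the pathway: *H2-Aa*, *H2-Ab1*, *H2-Eb1*, *Cd74*, *Ciita*, *H2-DMa* and *H2-DMb1*. Wild-type C57BL6/J mice received AAV9 in the medial PFC, carrying either an *Ash1L* shRNA or a control, which the methods text gives as a scrambled hairpin and the labels as GFP. The hairpin was driven by the U6 promoter, which is not restricted to a cell type, and RNA came from bulk lysate of PFC punches with GFP fluorescence, so all cells of the punch contribute. The sources differ on the number of animals: tissue of 3 mice pooled for a sample in one, and 3 *Ash1L* shRNA and 2 control mice in the other. The first gives injection at 5 weeks of age and the second mice aged 6 to 8 weeks. There were 2 control and 2 *Ash1L* shRNA samples, each treated as 1 replicate.

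MHC class II molecules present peptides from the endosomal route to CD4 T cells. An alpha and a beta chain pair in the endoplasmic reticulum with the invariant chain (Cd74), which blocks the peptide groove, and the heterodimer of H2-DMa with a DMb chain later exchanges the invariant chain remnant for peptide. Transcription depends on the coactivator Ciita, which has no DNA-binding domain of its own and is held at class II promoters by factors on the X box (the RFX complex) and the Y box (the NF-Y complex). In healthy brain, class II expression is low and is best known from border macrophages, dendritic cells, B cells and activated microglia.

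Promoter sequence shows what the class II chains share apart from their expression. RefSeq promoter windows (GRCm38.p6, the assembly of mm10, 250 bases before to 50 bases after a start) were at hand for 4 of the 7 genes and for 4 of the 5 further class II chains. The stretches below run 5′ to 3′ on the strand of the gene and are placed on the Y box, with capitals marking ATTGG (the Y box core, an inverted CCAAT) and, where it stands ahead of that core, AGNNACNGA (a pattern within the X box). They are shown to set the X-Y arrangement of chains that were called lower beside that of *H2-DMb1*, which was not. The stretches of *H2-Oa* and *H2-DMa*, also not called, are not shown. *H2-Aa* lies at chr17:34287847-34287931 (minus strand), *H2-Eb1* at chr17:34305748-34305832, *H2-DMb1* at chr17:34153070-34153154, *H2-DMb2* at chr17:34145099-34145183, *H2-Ob* at chr17:34238788-34238872 and *H2-Eb2* at chr17:34325515-34325599 (all plus strand).
H2-Aa: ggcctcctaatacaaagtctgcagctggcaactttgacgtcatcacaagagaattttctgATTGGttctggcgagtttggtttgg
H2-Eb1: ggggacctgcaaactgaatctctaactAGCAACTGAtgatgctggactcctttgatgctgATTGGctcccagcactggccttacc
H2-DMb1: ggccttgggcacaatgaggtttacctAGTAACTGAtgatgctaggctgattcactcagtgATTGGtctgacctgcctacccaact
H2-DMb2: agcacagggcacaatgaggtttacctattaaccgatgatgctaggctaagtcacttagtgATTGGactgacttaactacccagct
H2-Ob: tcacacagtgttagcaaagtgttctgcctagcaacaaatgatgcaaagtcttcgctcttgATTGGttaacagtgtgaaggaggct
H2-Eb2: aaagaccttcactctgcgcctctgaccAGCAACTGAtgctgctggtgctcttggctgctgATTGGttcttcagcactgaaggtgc

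The X pattern followed by the Y core on the same strand, with at most 40 bases between them, was found in *H2-Eb1* and *H2-DMb1* among the 7 genes, and in *H2-Eb2* among the other chains. The spacing was 24 bases in *H2-Eb1* and *H2-Eb2* and 25 in *H2-DMb1*. Of all 32851 RefSeq promoter windows, searched on both strands, 0.508% held this pair, 17.7% held the X pattern and 37.4% the Y core, each with or without the other. The Y core lay 48 bases before the start of *H2-Aa*, 59 before that of *H2-Eb1* and 61 before that of *H2-DMb1*. Of the 2 windows of *H2-DMa*, 1 held the Y core and neither held the X pattern. *H2-DMb1*, with both patterns, was not called, and *H2-DMb2*, with the Y core alone in these letters, was called lower. The split of reads between these genes is uncertain, as described further on. Searched on either strand, the windows of *H2-Ob* (called lower) and *H2-Oa* (not called) also held the X pattern, but not in this pair. A match is a description of the letters and not evidence of binding.

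The counts summed to between 14251190 and 35764874 per sample, lowest in control sample 1, and 16232 genes passed edgeR's filter on low counts, all 7 class II genes among them. Levels are CPM (TMM-scaled counts per 1000000), where TMM, the trimmed mean of M-values, corrects library size for composition. *Ash1l* itself was at 245 and 290 CPM in control samples 1 and 2 and at 216 and 138 in *Ash1L* shRNA samples 1 and 2. Both *Ash1L* shRNA samples thus lay below both controls (log2 fold change -0.60, SE 0.22). It was called lower (unadjusted p 0.0362, adjusted p 0.275, quasi-likelihood test of edgeR). The call was kept without *Ash1L* shRNA sample 1 (-0.97). It was lost without *Ash1L* shRNA sample 2 (-0.31), control sample 1 (-0.71) or control sample 2 (-0.48). The 8 cortical neuron markers checked, which include *Snap25*, *Slc17a7* and *Gad1*, were detected in every sample. All 8 were lower in both *Ash1L* shRNA samples than in either control, as were 26.8% of all tested genes. Of the 8, 3 were called lower (*Tbr1*, *Fezf2* and *Neurod6*), against 8.28% of all tested genes. Their summed level was 4524 and 4503 CPM in control and 4118 and 3293 CPM in *Ash1L* shRNA samples.

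The 3 classical class II chains and the invariant chain had less RNA in each *Ash1L* shRNA sample than in each control, by 3.94-fold to 5.39-fold in the fitted means, while *Ciita* and the DM genes had groups that overlapped. The comparison asks whether knockdown of *Ash1l* in PFC goes with a change in antigen presentation genes. A gene was called lower when, as the study defines it, P was under 0.05 without adjustment and the change at least 1.2-fold. By this rule 4 of the 7 genes were called lower and 0 higher, against 8.28% of all 16232 tested genes called lower and 8.61% called higher. After adjustment, 0 of the 7 stayed under 0.05 in the quasi-likelihood test of edgeR (4 before adjustment), where 0.00616% of all genes, 1 gene, did so. With DESeq2, 2 of the 7 had an adjusted p under 0.05 and were lower, against 0.813% of all genes it tested, and with the likelihood ratio test of edgeR 4 did, against 0.973%. The DESeq2 share is over 20177 genes, not cut by edgeR's filter on low counts, and the edgeR share over 16232, so these shares have unlike bases. With 2 samples against 2, an exact permutation test on a single gene cannot give a two-sided p below 0.333. In bulk tissue, fewer cells that express class II genes and less class II RNA per cell cannot be told apart.

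*Cd74* (ENSMUSG00000024610, mm10 chromosome 18 from 60803848 to 60812652), the invariant chain and most abundant of the set, was counted 1714 and 9107 times in the controls, and 1401 and 616 times after *Ash1L* shRNA (samples 1 and 2 of each). Scaled for depth, these were 121 and 259.6 CPM against 51.2 and 29.7 CPM. The lowest control sample thus stood above the highest *Ash1L* shRNA sample, although the controls themselves differed 2.14-fold. The means were 191 ± 97.7 CPM (SD, n = 2) in control and 40.4 ± 15.2 CPM (SD, n = 2) in *Ash1L* shRNA samples. The fitted log2 fold change was -2.24 ± 0.46 (SE) (unadjusted p 0.00495, adjusted p 0.253, quasi-likelihood test of edgeR, Benjamini-Hochberg adjustment).

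*H2-Aa* (ENSMUSG00000036594, chromosome 17 from 34282744 to 34287823) encodes the alpha chain of the class II molecule H2-A. It was at 60.1 and 113 CPM in the control samples and at 25.4 and 11.97 CPM in the *Ash1L* shRNA samples, again without overlap. The fitted log2 fold change was -2.21 ± 0.47 (SE) (adjusted p 0.253, edgeR's quasi-likelihood test), and the gene was called lower with any 1 of the 4 samples left out.

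*H2-Ab1* (ENSMUSG00000073421, chromosome 17 from 34257689 to 34269419) encodes the beta chain that pairs with H2-Aa. It was at 33.9 and 84.1 CPM in control and at 19.8 and 10.2 CPM in *Ash1L* shRNA samples. The gap between the groups was the smallest of the 4 called genes, with a log2 difference of -0.78 between *Ash1L* shRNA sample 1 and control sample 1. The fitted log2 fold change was -1.98 ± 0.54 (SE) (adjusted p 0.260, edgeR's quasi-likelihood test).

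*H2-Eb1* (ENSMUSG00000060586, chromosome 17 from 34305867 to 34316674) encodes the beta chain of the class II molecule H2-E. The C57BL6/J background carries a defective alpha chain gene for H2-E, listed as *H2-Ea-ps*, and that symbol had 0 counts in all 4 samples. *H2-Eb1* was at 42.5 and 100.3 CPM in control and at 17.8 and 8.68 CPM in *Ash1L* shRNA samples, so the groups did not overlap. It had the lowest log2 fold change of the 7 genes, -2.43 with a standard error of 0.55 (adjusted p 0.253, edgeR's quasi-likelihood test).

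**Figure D1:**
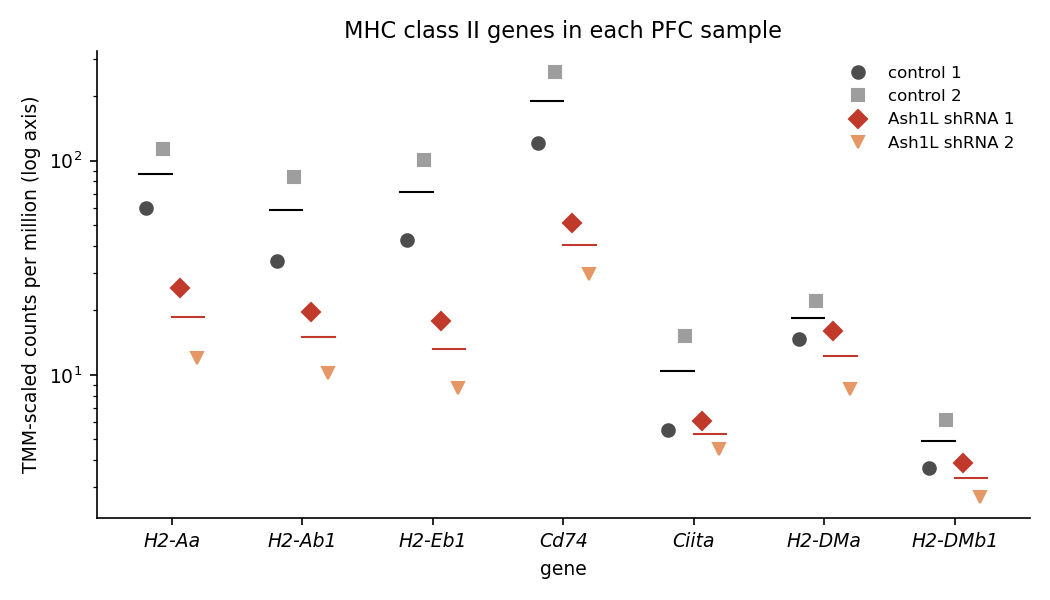
Level of each class II gene in each sample, in TMM-scaled CPM on a log axis. Points are single samples and the short lines are the group means (black for control, red for *Ash1L* shRNA, n = 2 each); *H2-Aa*, *H2-Ab1*, *H2-Eb1* and *Cd74* are lower in each *Ash1L* shRNA sample than in either control, and for *Ciita*, *H2-DMa* and *H2-DMb1* *Ash1L* shRNA sample 1 lies between the controls.

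*Ciita* (ENSMUSG00000022504, chromosome 16 from 10480059 to 10528418), the coactivator of class II transcription, was at 5.53 and 15.3 CPM in control samples 1 and 2 and at 6.10 and 4.49 CPM in *Ash1L* shRNA samples 1 and 2. Control sample 2 stood 2.76-fold above control sample 1, and the other 3 samples lay close together. The means were 10.4 ± 6.88 CPM and 5.29 ± 1.14 CPM (SD, n = 2 each), and the fitted log2 fold change was -0.996 ± 0.48 (SE) (adjusted p 0.344, edgeR's quasi-likelihood test). Without control sample 2 it was -0.06, so the size of the difference rested on that sample. Without control sample 1 it was -1.51 and the gene was called lower, as it also was with DESeq2, which called 6.35% of all genes it tested lower.

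*H2-DMa* (ENSMUSG00000037649, chromosome 17 from 34119541 to 34139101) and *H2-DMb1* (ENSMUSG00000079547, chromosome 17 from 34153072 to 34160230) encode chains of the peptide exchange factor H2-DM. *H2-DMa* was at 14.7 and 22.0 CPM in control and at 16.0 and 8.59 CPM in *Ash1L* shRNA samples. *H2-DMb1* was at 3.68 and 6.16 CPM in control and at 3.87 and 2.702 CPM in *Ash1L* shRNA samples. In both genes *Ash1L* shRNA sample 1 lay between the 2 controls and *Ash1L* shRNA sample 2 lay below them. The log2 fold changes were -0.58 (SE 0.34) for *H2-DMa* and -0.60 (SE 0.36) for *H2-DMb1*, with adjusted p-values of 0.417 and 0.421 in edgeR's quasi-likelihood test. Without *Ash1L* shRNA sample 1, the log2 fold change of *H2-DMa* was -1.12 and the gene was called lower.

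The order of the samples divided the set in the same way. *H2-Aa*, *H2-Ab1*, *H2-Eb1* and *Cd74* all ran from control sample 2 down through control sample 1 and *Ash1L* shRNA sample 1 to *Ash1L* shRNA sample 2, an order that 13.2% of all tested genes had. *Ciita*, *H2-DMa* and *H2-DMb1* ran from control sample 2 through *Ash1L* shRNA sample 1 and control sample 1 to *Ash1L* shRNA sample 2, as did 5.31% of tested genes. Both *Ash1L* shRNA samples lay below both controls in 4 of the 7 genes and in 26.8% of all tested genes, and above both controls in 0 of the 7 and in 26.5% of all tested genes. For the 4 called genes, the log2 difference between *Ash1L* shRNA sample 2 and control sample 2 ran from -3.53 in *H2-Eb1* to -3.04 in *H2-Ab1*, and between *Ash1L* shRNA sample 1 and control sample 1 from -1.26 to -0.78. For the other 3 genes this last difference ran from 0.07 in *H2-DMb1* to 0.14 in *Ciita*. The controls differed from each other by 1.503-fold (*H2-DMa*) to 2.76-fold (*Ciita*), and the *Ash1L* shRNA samples by 1.36-fold (*Ciita*) to 2.12-fold (*H2-Aa*), so the spread inside each group was wide throughout.

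**Figure D2:**
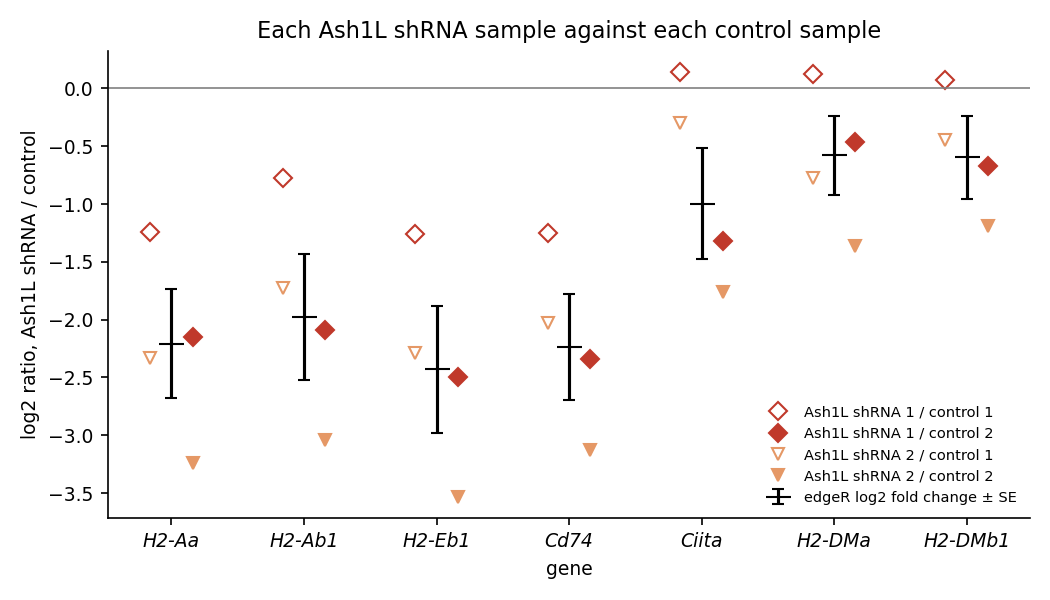
Log2 ratio of each *Ash1L* shRNA sample to each control sample for the 7 class II genes, with open symbols for control sample 1 and filled symbols for control sample 2. The black bars give the edgeR log2 fold change with its standard error; all ratios of *H2-Aa*, *H2-Ab1*, *H2-Eb1* and *Cd74* are below 0, and those of *Ash1L* shRNA sample 1 to control sample 1 are slightly above 0 in *Ciita*, *H2-DMa* and *H2-DMb1*.

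Ratios of genes within a sample do not depend on library size and were used to compare the members with each other. Levels were divided by the exonic length of the gene in GENCODE vM21 before the log2 ratio was taken. The ratio of *Cd74* to *H2-Aa* was 2.19 and 2.38 in control and 2.19 and 2.49 in *Ash1L* shRNA samples, so the groups overlapped, with a mean difference of 0.05. The ratio of *H2-Aa* to *H2-DMa*, in contrast, was 1.90 and 2.22 in control and 0.53 and 0.34 in *Ash1L* shRNA samples. Its mean difference of -1.63 was larger than the spread within either group. The same ratio to *H2-DMa* differed by -1.29 for *H2-Ab1*, by -1.78 for *H2-Eb1* and by -1.57 for *Cd74*, and in each the groups did not overlap. The ratio to *Ciita* differed by -1.43 for *H2-Aa*, by -1.10 for *H2-Ab1*, by -1.58 for *H2-Eb1* and by -1.38 for *Cd74*, also without overlap. *Ciita* over *H2-DMa* and *H2-DMa* over *H2-DMb1* had groups that overlapped, with differences of -0.20 and -0.06. Within the H2-A molecule, *H2-Aa* over *H2-Ab1* was 0.26 and -0.14 in control and -0.20 and -0.34 in *Ash1L* shRNA samples, a small difference with groups barely apart. *H2-Eb1* over *H2-Ab1* was 0.73 and 0.66 in control and 0.25 and 0.17 in *Ash1L* shRNA samples. In all, 14 ratios were compared. For the 11 whose groups did not overlap the two-sided exact permutation p was 0.333, the smallest that this design allows. After Benjamini-Hochberg adjustment over the 14 it was 0.424. Any ratio without overlap must take that value, so it carries nothing beyond the lack of overlap. The share of all gene pairs whose ratios lack overlap was not determined, so the count of 11 has no background to be set against. Ratios of called genes to *H2-DMa* and *Ciita* rest on the same values as the calls and are not independent of them.

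By level per length, *Cd74* was first and *Ciita* last in every sample. In control sample 1, *Cd74* was at 72.3 CPM per kb of exon, *H2-Eb1* at 21.9, *H2-Aa* at 15.8, *H2-Ab1* at 13.2, *H2-DMa* at 4.25, *H2-DMb1* at 2.19 and *Ciita* at 0.580. In *Ash1L* shRNA sample 2, *Cd74* was at 17.7, *H2-Eb1* at 4.47, *H2-Ab1* at 3.98, *H2-Aa* at 3.15, *H2-DMa* at 2.49, *H2-DMb1* at 1.61 and *Ciita* at 0.471. The neighbours *H2-Aa* and *H2-Ab1* changed places between samples and are not ordered by these data. Summed over the 7 genes, the level was 282 and 600.5 CPM in control and 140.1 and 76.4 CPM in *Ash1L* shRNA samples, a ratio of group means of 4.08.

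**Figure D3:**
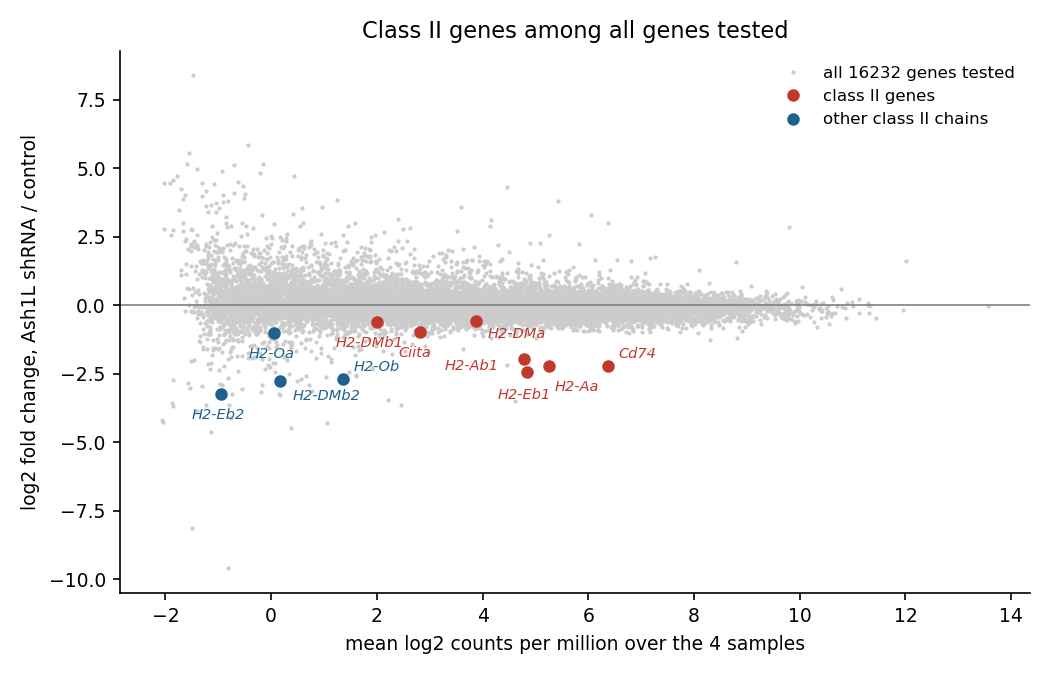
Log2 fold change (*Ash1L* shRNA over control) of all 16232 genes tested against their mean log2 CPM over the 4 samples (grey), with the 7 class II genes in red and the 4 other class II chains tested in blue. *H2-Aa*, *H2-Ab1*, *H2-Eb1* and *Cd74* sit below nearly all genes of similar level, while *Ciita*, *H2-DMa* and *H2-DMb1* lie below 0 but nearer to it.

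Ranked from the lowest log2 fold change of all 16232 genes tested, the 4 called genes stood at places 45 (*H2-Eb1*), 54 (*Cd74*), 55 (*H2-Aa*) and 68 (*H2-Ab1*), and 0.419% of genes had a log2 fold change as low as that of *H2-Ab1*. *Ciita* stood at place 243, *H2-DMb1* at 876 and *H2-DMa* at 945. The median log2 fold change of the 7 genes was -1.98, beside -0.003 over all genes tested. Leaving out either *Ash1L* shRNA sample ended the calls of *H2-Ab1*, *H2-Eb1* and *Cd74*, and without control sample 2 the log2 fold changes of the 4 genes lay between -1.68 and -1.17, all still called lower.

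The other class II chains were at low levels, and most were called lower as well. Of the 5 listed, 4 could be tested, and 3 of these were called lower and 0 higher, with a median log2 fold change of -2.74. Over all tested genes, 8.28% were called lower. *H2-DMb2* and *H2-Eb2* passed the filter only through their control counts. With so few counts after *Ash1L* shRNA they could enter the test only as lower genes, which in part sets this count and median. With at least 10 counts in every sample neither was tested, and *H2-Ob* was the 1 pathway gene still called lower (log2 fold change -2.69). In the quasi-likelihood test of edgeR, 0 genes of these chains and of the other pathway lists had an adjusted p under 0.05. *H2-Ob*, the beta chain of H2-O, which restrains H2-DM and is known from B cells, was counted 81 and 256 times in control and 37 and 13 times after *Ash1L* shRNA (5.74 and 7.30 against 1.35 and 0.627 CPM). Its fitted log2 fold change was -2.69 ± 0.42. (SE) *H2-Oa*, the alpha chain of H2-O, was at 1.35 and 2.14 CPM in control and at 1.53 and 0.145 CPM in *Ash1L* shRNA samples. Its groups overlapped and it was not called (log2 fold change -1.03, SE 0.87). Without *Ash1L* shRNA sample 1 the log2 fold change was -3.59 and the gene was called lower, and without *Ash1L* shRNA sample 2 it was -0.22. *H2-Eb2*, a second H2-E beta gene, was at 1.28 and 1.197 CPM in control and at 0.146 and 0.0965 CPM in *Ash1L* shRNA samples, where it rested on 4 and 2 counts.

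*H2-DMb2* encodes a second DM beta chain and lies beside *H2-DMb1*. It was at 1.98 and 3.39 CPM in control and at 0.402 and 0.386 CPM in *Ash1L* shRNA samples, or 28, 119, 11 and 8 counts, with a log2 fold change of -2.78 ± 0.48. (SE) The per-length log2 ratio of *H2-DMb1* to *H2-DMb2* was 0.95 and 0.92 in control and 3.32 and 2.86 in *Ash1L* shRNA samples, a difference of 2.16 with no overlap. The genes may share reads, since 22.7% of all 50-base windows in *H2-DMb1* transcripts also occur in *H2-DMb2* transcripts. How the authors' counting treated such reads is not stated, so the split between them is uncertain.

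The enzymes that prepare class II peptides were not called. Of the 6 genes for antigen processing tested, 0 were called lower and 0 higher, with a median log2 fold change of 0.12. *Ctss*, the protease that trims the invariant chain in antigen-presenting cells, was at 214 and 284 CPM in control and at 263 and 97.7 CPM in *Ash1L* shRNA samples, so only *Ash1L* shRNA sample 2 was low (log2 fold change -0.46, SE 0.48). *Lgmn*, an endosomal protease, was at 189 and 201 against 270.1 and 179 CPM. *Ctsl*, another cathepsin, was at 109 and 108 against 151 and 108 CPM. *March8*, a ubiquitin ligase for class II molecules, was at 75.7 and 71.3 against 76.8 and 75.8 CPM.

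The DNA-binding factors of class II promoters gave 1 call. Of 7 genes for RFX, NF-Y and Creb1, 0 were called lower and 1 was called higher, with a median log2 fold change of 0.08. The gene called higher was *Nfyc*, an NF-Y subunit, at 29.5 and 26.9 CPM in control and 38.7 and 38.9 CPM in *Ash1L* shRNA samples (log2 fold change 0.46, SE 0.13). It lost the call without control sample 2, at 0.39. *Nfya* and *Nfyb* had log2 fold changes of -0.21 and -0.22 and *Creb1* one of 0.11. *Rfx5*, the RFX subunit named here after its values were seen, was at 22.7 and 26.3 CPM in control and at 19.9 and 18.7 CPM in *Ash1L* shRNA samples. Its fitted log2 fold change was -0.35 ± 0.15 (SE), and it was not called.

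Interferon gamma is the best known inducer of *Ciita*, through the receptor-bound kinases Jak1 and Jak2. *Ifng* was counted 3 and 16 times in control and 4 and 2 times after *Ash1L* shRNA and was too low to be tested. Of the other 7 genes of this route, 0 were called lower and 1, the receptor subunit gene *Ifngr2*, was called higher (log2 fold change 0.32, SE 0.11). That call was lost with DESeq2 (0.31), the likelihood ratio test (0.32) and the replicate block (0.32), and without control sample 1 (0.36), control sample 2 (0.28) or *Ash1L* shRNA sample 2 (0.29). *Jak1* and *Jak2* had log2 fold changes of -0.08 and -0.20. The 4 costimulatory ligand genes *Cd80*, *Cd86*, *Cd40* and *Icosl* gave 0 calls, with log2 fold changes from -0.37 (*Cd80*) to 0.16 (*Icosl*).

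Markers of cell types that can carry class II molecules were measured beside the class II genes, and their part in the class II result was not tested. Many lymphocyte and plasma cell markers were called lower, though not all went the same way. Over all tested genes, 8.28% were called lower and 8.61% higher. In the quasi-likelihood test of edgeR, 0 of the marker genes had an adjusted p under 0.05. Of 8 B cell markers tested, 5 were called lower (among them *Cd79a*, *Cd79b*, *Ms4a1* and *Fcrla*) and 0 higher, with a median log2 fold change of -2.88. *Cd79a*, *Ms4a1* and *Fcrla*, like some T cell markers, passed the filter only through their control counts and could enter the test only as lower genes. With at least 10 counts in every sample, 11 marker genes in place of 23 were called lower. All 10 B cell markers listed summed to 15.7 and 26.4 CPM in control and to 13.9 and 6.66 CPM in *Ash1L* shRNA samples, and *Pax5* and *Blk* were at 0 in *Ash1L* shRNA sample 2. The most abundant of them, *Cd22* and *Bank1*, were not called. *Bank1* was at 2.98 and 4.08 CPM in control and at 5.44 and 4.25 CPM in *Ash1L* shRNA samples, above both controls in both, whereas *Cd79b* was at 3.33 and 4.62 CPM in control and at 0.986 and 0.289 CPM in *Ash1L* shRNA samples. Of 9 T cell markers, 7 were called lower and 0 higher (median -1.71), and their summed level was 14.7 and 29.0 CPM in control and 7.12 and 4.44 CPM in *Ash1L* shRNA samples.

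Of 7 plasma cell markers, 3 were called lower (*Mzb1*, *Derl3* and *Irf4*) and 0 higher (median -1.61), against 8.28% of all tested genes called lower. *Igj*, the immunoglobulin joining chain gene, was at 142 and 134 CPM in control and at 23.4 and 0.724 CPM in *Ash1L* shRNA samples, and *Mzb1* at 9.85 and 8.87 against 0.694 and 0.193 CPM. Unlike the class II genes, these did not differ much between the controls. *Sdc1*, also on this list, was at 5.53 and 4.22 CPM in control and at 3.98 and 12.2 CPM in *Ash1L* shRNA samples (log2 fold change 0.73, SE 0.53, not called). Among 5 monocyte markers tested, *Ly6c2* and *Ccr2* were called lower and *Vcan* higher. *Ly6c2* was at 10.2 and 20.6 CPM in control and at 1.57 and 1.25 CPM in *Ash1L* shRNA samples. *Vcan* and *Fn1*, which other brain cells also express, set the sum of this list, at 105 and 167 CPM in control and 134 and 202 CPM in *Ash1L* shRNA samples.

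Summed microglia and dendritic cell markers did not follow the sample order of the called class II genes. The border macrophage sum did, over a narrow range. Of 10 microglia markers, 0 were called, and the summed level was 666 and 685 CPM in control, 836 CPM in *Ash1L* shRNA sample 1 and 347 CPM in sample 2. *Cd74* in *Ash1L* shRNA sample 1 was thus below both controls while the summed microglia level in the same sample was above both. *Csf1r* and *Cx3cr1* had log2 fold changes of -0.47 and -0.08. Of 6 border macrophage markers tested, 1 (*Mrc1*) was called lower and 0 higher, and all 8 listed summed to 23.6 and 27.5 CPM in control and to 22.5 and 20.9 CPM in *Ash1L* shRNA samples. Of 9 dendritic cell markers tested, 1 (*Xcr1*) was called lower and 0 higher. The 10 listed summed to 35.4 and 52.3 CPM in control and to 62.8 and 32.6 CPM in *Ash1L* shRNA samples, with *Itgax* alone at 36.9 CPM in *Ash1L* shRNA sample 1. Leptomeningeal fibroblast markers, a sign of attached meninges, gave 1 call lower (*Slc6a13*) and 1 higher (*Lum*) among 7 tested and summed to 96.0 and 138 CPM in control and to 125 and 121 CPM in *Ash1L* shRNA samples. The 5 neutrophil markers found were too low to be tested and summed to 1.35 CPM or less in every sample.

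**Figure D4:**
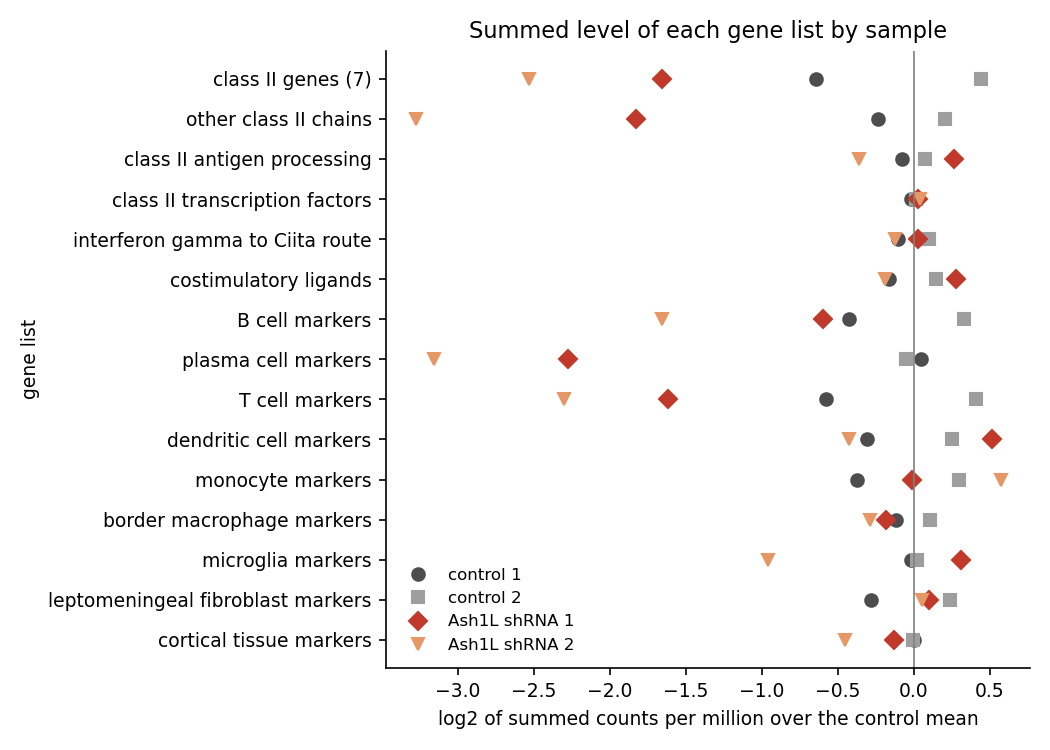
Log2 of the summed CPM of each gene list in each sample, relative to the mean of the 2 control samples. The class II genes, the other class II chains and the plasma cell and T cell markers lie furthest to the left in both *Ash1L* shRNA samples, while the class II transcription factors lie near 0 and the microglia markers lie on either side of 0.

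The genes nearest in pattern to the class II set were found by the root mean square (RMS) difference, over the 4 samples, between a gene's log2 CPM centred on its own mean and the median centred profile of the 7 genes, among genes with a mean of at least 20 counts. That median profile was 0.30 and 1.57 in control and -0.48 and -1.42 in *Ash1L* shRNA samples. The 5 nearest genes outside the set were *Cxcl9*, a chemokine gene (RMS difference 0.15), *Lat*, an adaptor of the T cell receptor (0.17), *Ms4a4b* (0.18), *Rnase6*, a secreted ribonuclease (0.18), and *Spib*, a transcription factor of B cells and plasmacytoid dendritic cells (0.19). *Cxcl9* was at 6.45 and 15.5 CPM in control and at 4.78 and 2.17 CPM in *Ash1L* shRNA samples. *Spib* was at 0.921 and 3.05 CPM in control and at 0.548 and 0.338 CPM in *Ash1L* shRNA samples. Within the set, the difference from the median profile ran from 0.02 in *H2-Ab1* to 0.71 in *H2-DMb1*, so these outside genes lay nearer to it than *Ciita* (0.57) and the DM genes did. With 4 samples this likeness is a description only.

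Exons of 3 of the 7 genes overlap another annotated gene: *Ciita*, *H2-DMa* and *Cd74*, the last with the microRNA gene *Mir5107*, which is not analysed here. In GENCODE vM21, 3.45% of the exonic bases of *Ciita* are shared with *Dexi* and 10.4% of those of *H2-DMa* with *Brd2*, both on the opposite strand, and no source states whether the counting used strand. *Dexi* was at 21.0 and 21.8 CPM in control and at 16.2 and 13.4 CPM in *Ash1L* shRNA samples, and *Brd2* at 162 and 163 against 153 and 151 CPM. The part of these neighbours in the counts of *Ciita* and *H2-DMa* was not tested. Among *H2-Aa*, *H2-Ab1*, *H2-Eb1* and *Cd74*, at most 0.488% of the 50-base transcript windows occurred in another gene's transcripts.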

How the data were processed

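RNA was measured in PFC punches of 2 control and 2 *Ash1L* shRNA samples, from stranded libraries depleted of ribosomal RNA. Alignment by the authors was to mm10 with STAR, and featureCounts gave the deposited raw counts, 1 value for each gene symbol and sample, which were not normalized. The sample labels name TopHat2 in place of STAR, and the strand and multiple-mapping settings are not given in the sources used here.

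Samples were grouped by their titles. Genes were filtered with filterByExpr, scaled with TMM and tested with the quasi-likelihood test of edgeR 4.0.16 (R 4.3.3, robust fit, no block, Benjamini-Hochberg adjustment over 16232 genes). Each standard error is the absolute log2 fold change over the root of its F statistic. The study's own tool, DESeq2 (1.42.0 here), was an alternative, beside a likelihood ratio test, other scalings and filters, a replicate block, fits that leave out 1 sample, and a limit of 1.5-fold. The script was tested on simulated data.

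Replicate counts differed beyond sampling noise (chi-square over degrees of freedom 13.0 for the controls, 37.0 for *Ash1L* shRNA), so none was the same library deposited again; repeat libraries of 1 RNA could differ as much. The labels do not tie samples to separate animals, so p-values measure only the spread between these samples, which may be technical. Deviations of same-numbered samples correlated at -0.11, and nothing in the labels ties them together.

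Gene lists covered the class II genes, other class II chains, antigen processing, transcription factors, the interferon gamma route, costimulatory ligands and markers of 9 cell types and of cortex. Named genes are all 7 class II genes, at most 4 genes of each pathway list and 3 of each marker list by mean count, the 5 nearest in pattern, and genes of small counts; a few genes that the rule names are not reported here. Genes, lists and tests were chosen with earlier results of these data known. Exonic lengths and coordinates came from GENCODE vM21 (GRCm38), and promoters from RefSeq. Promoters of *H2-Ab1*, *Cd74* and *Ciita* are not analysed here. *Igj* is now *Jchain*, matched by RefSeq synonym.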

Additional observations from a re-analysis of the deposited data

How the results depend on the processing

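Across the alternatives, log2 fold changes of the 7 class II genes kept their sign, and with all samples kept they ran from -2.24 to -2.18 for *Cd74*, from -2.24 to -2.17 for *H2-Aa*, from -1.98 to -1.90 for *H2-Ab1* and from -2.43 to -2.37 for *H2-Eb1*. With each sample left out in turn, those ranges were -2.69 to -1.59, -2.87 to -1.68, -2.55 to -1.17 and -3.06 to -1.68. The adjusted p of *Cd74* ran from 0.000308 to 0.870 over all alternatives.

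With no filter on low counts, 2 class II genes were called lower (*H2-Ab1* and *H2-Eb1* lost the call), and 1 pathway gene, 4 marker genes and 34 genes in all had an adjusted p under 0.05. With DESeq2, these adjusted counts were 2 class II genes, 3 pathway genes, 14 marker genes and 420 genes in all, with 1 pathway and 1 marker gene called higher. With the likelihood ratio test they were 4, 3, 16 and 479, with 1 pathway gene called higher. A minimum of 10 counts in every sample left 1 pathway and 11 marker genes called lower, since fewer low genes were tested. With the replicate block, 1 pathway gene was called higher and 0 genes in all had an adjusted p under 0.05; the block left the same 4 class II genes called lower (-2.22 for *H2-Aa*, -1.90 for *H2-Ab1*, -2.37 for *H2-Eb1* and -2.18 for *Cd74*) and called no other. With the numbers crossed, an alternative added after seeing the data, *Ciita* and *H2-DMa* were also called lower, 4 class II genes, 1 marker gene and 16 genes in all passed the adjusted limit, and 1 marker gene was called higher. The search for ATTGG alone matched 4 class II genes in place of 2. Other causes were not tested.

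With each sample left out in turn, 1 to 5 class II genes, 3 to 7 pathway genes, 13 to 43 marker genes and 306 to 2718 genes in all were called lower, and 0 to 3 pathway genes, 0 to 7 marker genes and 423 to 2368 genes in all were called higher. An adjusted p under 0.05 was reached by 0 to 1 class II genes, 0 to 6 pathway genes, 0 to 36 marker genes and 0 to 2502 genes in all. *Ash1l* ran from -0.97 to -0.31. Uncalled genes that changed sign were *Ctss* (-1.36 to 0.0798), *Lgmn* (-0.13 to 0.47), *Ctsl* (-0.0065 to 0.49), *Nfya* (-0.40 to 0.00157), *Cd86* (-0.42 to 0.42) and *Cd40* (-0.66 to 0.45). A lone sample in a group was assumed to vary like the other group. Depth limits the chains with few counts, such as *H2-Eb2*.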
